A study of Mus musculus with 12 samples.

Results

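Type II alveolar epithelial cells lacking Gna12 were compared with the same kind of cells lacking Gna11. The arrays were chosen by their titles alone, 3 of Gna12 knockout and 3 of Gna11 knockout cells, which are 6 of the 12 arrays of the study. All 18193 genes with a probe set of their own were compared, each through its probe set with the highest mean level over the 12 arrays. The other 6 arrays held cells lacking both Gna12 and Gna13 and cells lacking both Gnaq and Gna11, 3 of each, and the study's stated purpose was to compare expression between the single and double knockout cells. All 4 groups were untreated cells from mouse lung, grown on collagen for 7 days, with keratinocyte growth factor but no hydrocortisone added to a medium for bronchial epithelium that was renewed every 3 days. The sources used here do not give the strain, the age of the mice or the kind of allele (germ line, or removed by Cre in some cells). No cells with all 4 genes intact were profiled, so which of the knockouts a difference comes from cannot be told apart. A position code in the labels has the number 4 for every Gna12 array and 2 for every Gna11 array, so position and genotype cannot be told apart.

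Heterotrimeric G proteins carry signals from receptors at the cell surface, and their alpha subunits decide which pathway is entered. Subunits of the Gq/11 class, which include the product of Gna11, activate phospholipase C beta and raise calcium, while those of the G12/13 class, which include the product of Gna12, act through exchange factors on the small GTPase RhoA. Type II alveolar cells make surfactant and renew the alveolar lining, and cultures of them from lung can carry along macrophages and other leukocytes.

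Values are log2 expression levels, and differences are Gna12 minus Gna11 on that scale with the standard error (SE) of a limma model fitted to all 12 arrays. A gene was called at a Benjamini-Hochberg adjusted p under 0.05 over all 18193 genes. The arrays were alike in centre, with medians between 5.032 and 5.11. The first principal component, with 27.7% of the variance, separated the 6 arrays of both groups lacking Gna12 from the 6 of both groups lacking Gna11. On the second (18.6%) the Gnaq/Gna11 arrays lay lowest (-33.69 to -29.52) and replicate 2 of the Gna11 cells highest (50.87). Replicates 1 and 3 of the Gna11 cells gave 20.22 and 12.07 there. Replicate 2 of the Gna11 cells received the lowest array weight, 0.489. Eif2s3y, which lies on the Y chromosome, was low in replicate 2 of the Gna12, Gna11 and Gna12/Gna13 cells and in all 3 Gnaq/Gna11 arrays (3.07 to 3.56), and high in the other 6 arrays (6.91 to 7.37). The signal of Gapdh near its 3' end exceeded that near its 5' end by 3.00 ± 0.298 in Gna12 arrays and by 3.70 ± 0.294 in Gna11 arrays (SD, n = 3 each), without overlap. The same difference for Actb was 3.00 ± 0.142 in Gna12 arrays and 3.23 ± 0.178 in Gna11 arrays (SD), with overlap, and it was not used as a covariate. The Gapdh measure of RNA integrity and labelling thus differed with genotype, as did the leukocyte genes described below. Their part in the results was not tested apart from the fits that include them, which are given beside the counts.

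The targeted genes did not show a uniform loss of signal in their own knockouts. Gna12 had 5 probe sets. Its brightest gave 6.95, 7.15 and 6.90 in Gna12 cells, against 6.55, 6.77 and 6.77 in Gna11 cells, so the level was higher in the cells lacking the gene in every array (difference 0.30, exact two-sided permutation p = 0.1, the smallest that 3 arrays against 3 allow). A second Gna12 probe set read the other way, with 5.76, 5.91 and 5.71 in Gna12 cells, against 6.22, 5.99 and 6.09 in Gna11 cells (difference -0.31, exact p = 0.1). The other 3, which were dimmer, gave differences of -0.33, -0.21 and -0.03 (exact p = 0.1, 0.1 and 0.4), the first 2 without overlap of the groups. Of the 2 Gna11 probe sets, 1 gave 7.98, 8.15 and 8.30 in Gna12 cells, against 7.83, 6.88 and 6.86 in Gna11 cells (difference 0.95, exact p = 0.1), a lower level in the cells lacking the gene. The brighter one gave 7.18, 7.87 and 7.89 in Gna12 cells, against 7.57, 9.66 and 7.82 in Gna11 cells, with replicate 2 of the Gna11 cells the highest (exact p = 0.6). In the double knockouts the dimmer Gna11 probe set gave 7.31, 7.06 and 7.39 in Gnaq/Gna11 cells, against 8.52, 8.57 and 8.48 in Gna12/Gna13 cells. The second Gna12 probe set gave 5.89, 5.61 and 5.73 in Gna12/Gna13 cells, against 5.98, 5.97 and 6.17 in Gnaq/Gna11 cells. The brightest probe set of either gene overlapped between these groups. The sources used here do not tell which probe sets lie within the deleted exons, so these values check the labels only in part. Gna13 and Gnaq, which are intact in both groups, differed by 0.03 and 0.17 in their brightest probe sets and were not called. Some of their dimmer probe sets differed by more. All 7 of Gna13 were positive, up to 0.87, and the 7 of Gnaq ran from -0.17 to 0.71, with the groups apart in 2 Gna13 probe sets and 1 Gnaq probe set (exact p = 0.1 each).

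In total 513 of 18193 genes were called (2.82%), 316 higher in Gna12 cells (1.74%) and 197 lower (1.08%), and 304 of these differed by at least 2-fold. The higher calls had a median difference of 1.26 and the lower calls one of -0.894, while the median over all genes was -0.0623. In all 513 genes the 3 Gna12 arrays lay on 1 side of the 3 Gna11 arrays, as they did in 26.3% of all genes. The count depended on which arrays set the spread. With the 6 arrays of the comparison alone limma called 22 genes, and leaving out 1 of the 6 arrays gave between 62 and 736 calls. The lowest, 62, was without replicate 2 of the Gna12 cells, followed by 139 without Gna12 replicate 1, 210 without Gna11 replicate 1 and 232 without Gna11 replicate 2, while 368 were called without Gna12 replicate 3 and 736 without Gna11 replicate 3. With the mean of the pan-leukocyte genes as a covariate limma called 0 genes at the adjusted threshold and 1070 at an unadjusted p under 0.05, and with the Gapdh 3' minus 5' difference it called 0 and 1387. The unadjusted count without a covariate was 3795. The median of the 316 higher calls was 0.725 with the leukocyte mean in the model and 0.967 with the Gapdh difference, and that of the 197 lower calls -0.699 and -0.668, while the median SE of the higher calls grew to 0.421 and 0.384 from 0.245 without them. Of the 94 called genes named here, 19 were called in each of the 6 fits that left out 1 array, 27 in 3 to 5, 42 in 1 or 2 and 6 in none, and without Gna12 replicate 2, the array that ended the most calls, 19 of the 94 were called.

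The genes with the lowest levels in Gna12 cells relative to Gna11 cells were an enzyme of amino acid breakdown, an integrin and several serine proteases. Hal, the histidine ammonia-lyase that turns histidine into urocanate, gave 4.47, 4.60 and 5.27 in Gna12 cells, against 9.64, 9.01 and 8.68 in Gna11 cells. The groups lay far apart, with a difference of -4.33 ± 0.30 (SE), a 20.1-fold lower level in Gna12 cells (limma adjusted p = 0.000295, the lowest of all genes). Itga9, the alpha 9 integrin subunit, gave 6.70, 6.50 and 6.37 in Gna12 cells, against 10.96, 10.80 and 10.45 in Gna11 cells. Its difference was -4.21 ± 0.36 (adjusted p = 0.000609), but the other 2 probe sets of Itga9 differed by -0.04 and 0.29. The difference was thus seen by 1 of 3 probe sets.

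Kallikreins, a family of secreted serine proteases, were lower in Gna12 cells for 3 members. Klk1, the tissue kallikrein that releases kinins, gave 7.72, 7.80 and 6.17 in Gna12 cells, against 10.21, 10.66 and 10.63 in Gna11 cells (difference -3.27 ± 0.40, adjusted p = 0.00461). A second Klk1 probe set differed by -3.35 and the remaining 2 by -0.74 and -0.19. Klk1b27 differed by -2.41 and Klk13 by -1.38, both without overlap of the groups. The coding sequences of the Klk1 group are closely alike, so probe sets may read more than 1 member. In the list of kallikreins and CEA-related adhesion molecules 3 of 19 measured genes were lower and 1 was higher.

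Among the further genes with large negative differences were Cma1, a mast cell chymase (-2.68), Hsd3b2, a steroid dehydrogenase (-2.58), Tshb, the beta subunit of thyrotropin (-2.57), Hyi, a hydroxypyruvate isomerase (-2.49), and Adat2, a subunit of the tRNA adenosine deaminase (-2.47). Adat2 gave 6.45, 5.73 and 6.31 in Gna12 cells, against 8.71, 8.63 and 8.57 in Gna11 cells, a narrow range in the Gna11 arrays well above the Gna12 arrays (adjusted p = 0.00639). The remaining genes of the 15 were Elobl (-2.71), Tesc, a calcium-binding protein (-2.64), Klk1b27, Greb1 (-2.40), the transcription factor Ets1 (-2.30), Ptgfr, the receptor for prostaglandin F (-2.15), and Rab17, a small GTPase of epithelial vesicle traffic (-2.12). Hal, Itga9, Klk1 and Adat2 were called whichever single array was left out, with adjusted p up to 0.0388, whereas Tesc and Rab17 were not called in any of these 6 fits (adjusted p 0.0635 to 0.128 for Tesc and 0.0533 to 0.0957 for Rab17).

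The largest positive differences were in immune genes and in a few epithelial or metabolic ones. Ighm, the constant part of the IgM heavy chain, gave 12.76, 11.73 and 12.88 in Gna12 cells, against 8.91, 8.40 and 4.93 in Gna11 cells. The Gna11 arrays spread widely, with replicate 3 lowest, and the difference was 5.04 ± 0.88 (adjusted p = 0.0183). With 1 array left out its adjusted p reached 0.062, and the call was lost without replicate 1 or replicate 2 of the Gna12 cells. Ighm has 11 probe sets, of which 8 were higher in Gna12 cells by 1.70 to 5.04 and the 3 dimmest differed by -0.46 to 0.07. Of 13 B cell and plasma cell genes Ighm was the 1 called, and the median was -0.05. Jchain (2.31) and Cd22 (1.58) had positive differences, Cd79a (-0.29) and Cd79b (-0.63) negative ones, and Ms4a1 (0.08) and Pax5 (-0.09) small ones, none of them called.

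Ceacam10, a secreted member of the CEA family, gave 8.61, 8.67 and 8.42 in Gna12 cells, against 5.03, 4.26 and 3.87 in Gna11 cells. The difference was 4.18 ± 0.36, an 18.1-fold higher level (adjusted p = 0.000609), and another probe set gave 2.37 and a dim one 0.01. Apoc2, the cofactor of lipoprotein lipase, gave 12.34, 11.85 and 10.53 in Gna12 cells, against 7.54, 6.64 and 8.47 in Gna11 cells (difference 4.02 ± 0.67, adjusted p = 0.0142). Clec1b, a lectin-like receptor that binds podoplanin, followed with 3.98, but its Gna11 arrays ran from 4.32 to 8.38.

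Il10, the anti-inflammatory cytokine, gave 9.17, 8.34 and 7.69 in Gna12 cells, against 5.49, 4.74 and 5.55 in Gna11 cells (difference 3.14 ± 0.47, adjusted p = 0.00979). Further large positive differences were those of Slc7a11, the cystine transporter (3.55), Lbhd2 (3.52), Hamp, the iron hormone hepcidin (3.16), the transcription factor Zeb2 (3.12), S100a9, a subunit of calprotectin (3.11), Mmp8, the neutrophil collagenase (3.07), Sh3bp5 (3.06), Asprv1, an aspartic protease (3.00), the receptor Tlr6 (2.95) and Il1r2, a decoy receptor for interleukin 1 (2.94). Dimmer probe sets of Sh3bp5 differed by 0.61 and 0.29 and those of Zeb2 by 0.30 to 2.44. With the mean of its probe sets Sh3bp5 was not called. Ceacam10, Lbhd2, Il10, Mmp8 and Il1r2 were called in each of the 6 fits without 1 array, Apoc2 in 4, Clec1b in 2, and Hamp and Asprv1 in 1, with adjusted p up to 0.109 and 0.123 for the last 2 genes.

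**Figure D1:**
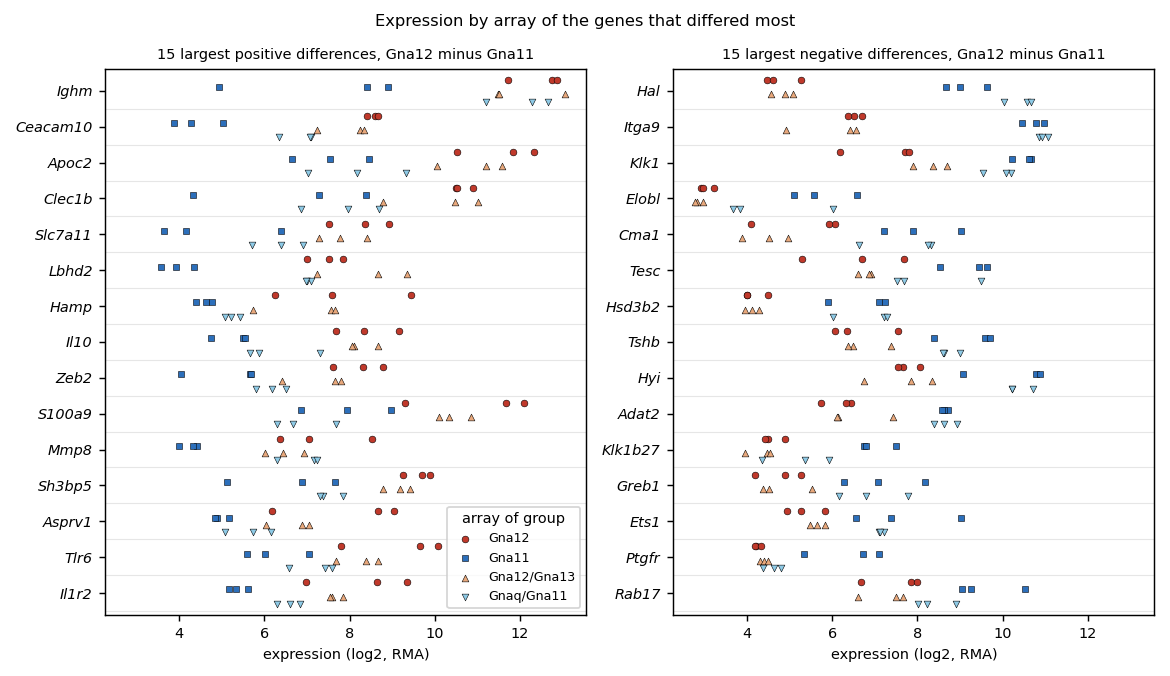
Each point is the log2 expression of a gene (rows) in 1 array, for the 15 genes with the largest positive (left) and the 15 with the largest negative (right) differences among called genes. Gna12 arrays are red circles, Gna11 arrays blue squares, Gna12/Gna13 arrays orange triangles and Gnaq/Gna11 arrays pale blue inverted triangles. Hal and Itga9 show 2 separate clouds in both pairs of groups, whereas the Ighm values of the double knockouts overlap.

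Several genes that leukocytes share were higher in Gna12 cells. The pan-leukocyte list had 7 of 20 measured genes called higher and none lower (35% called, against 2.82% of all genes). All 20 differences were positive, with a median of 1.24 against -0.0623 over all genes. The share over all genes applies beside every list count. The lists were chosen with earlier results of these data known, so their counts are a description and no test. The mean level of the list was 9.88, 9.87 and 9.35 in Gna12 arrays, against 8.48, 8.28 and 8.88 in Gna11 arrays, and the groups did not overlap. Lcp1, which bundles actin in leukocytes, gave 10.86, 11.06 and 10.44 in Gna12 cells, against 8.30, 7.57 and 9.86 in Gna11 cells (difference 2.21 ± 0.46, adjusted p = 0.0336). Cd53, a leukocyte tetraspanin, and Vav1, an exchange factor of lymphoid and myeloid cells, both differed by 2.09, and Itgb2, the shared beta subunit of the leukocyte integrins, by 1.88. Coro1a, Laptm5 and Cyba were the other called members. Ptprc, which encodes CD45 and defines leukocytes, differed by 1.00 and was not called, and Tyrobp, the adaptor of myeloid receptors, by 0.17. In RNA from a whole culture, fewer cells of a type and less RNA of it per cell cannot be told apart.

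Macrophage genes showed the highest list median, 1.47, with 5 of 21 called higher, none lower and 20 differences positive (23.8% called, against 2.82% of all genes). The mean level of the list was 8.92, 9.23 and 8.57 in Gna12 arrays, against 7.71, 7.14 and 7.84 in Gna11 arrays. Aif1, an actin-binding protein of macrophages, gave 9.57, 9.72 and 8.41 in Gna12 cells, against 7.61, 6.24 and 5.60 in Gna11 cells (difference 2.75 ± 0.58, adjusted p = 0.0361). Cd14, the co-receptor for lipopolysaccharide (1.71), Cd68, a lysosomal glycoprotein (1.47), Spi1, the myeloid transcription factor PU.1 (1.46), and Ctss, the antigen-processing cathepsin S (1.11), were also called. The alveolar macrophage genes Marco (1.57), Siglecf (1.51) and Itgax (1.73) and the complement genes C1qa (1.70), C1qb (1.32) and C1qc (1.98) had positive differences of like size and were not called. Csf1r, the receptor for macrophage growth factor, differed by 0.46. Among Lcp1, Cd53, Vav1 and the 5 called macrophage genes none passed in more than 3 of the 6 fits without 1 array, and Itgb2 passed in 4, with adjusted p up to 0.0685. The pan-leukocyte list had 0 to 9 calls in these fits, 0 without Gna12 replicate 1 or 2, and a median of 1.04 to 1.47, and the macrophage list had 0 to 7 calls, 0 without Gna12 replicate 1 or 2 or Gna11 replicate 2, and a median of 1.23 to 1.71. Once the pan-leukocyte mean was in the model, the median of the macrophage list was -0.04. That of the pan-leukocyte list itself was 0.04, near 0 by construction because the covariate is the mean of the same genes. With the Gapdh difference the medians were 0.75 for the macrophage list and 0.62 for the pan-leukocyte list.

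Lists of lipid-laden macrophages and of neutrophils also held genes that were higher in Gna12 cells. In the lipid-associated list 5 of 17 were higher and none lower (median 0.81), led by Apoc2, Fabp4, a fatty acid carrier (2.42), Lipa, the lysosomal acid lipase (1.40), and Ctsd, cathepsin D (0.81). The list had 0 to 7 calls with 1 array left out, 0 without Gna12 replicate 2, and its median was 0.09 with the leukocyte mean in the model and 0.32 with the Gapdh difference. In the neutrophil list 3 of 13 were higher, S100a9, Mmp8 and S100a8 (2.47), and none lower. In this list 10 differences were positive and the median was 0.91. That median was 0.51 with the leukocyte mean in the model and 0.45 with the Gapdh difference. S100a9 gave 11.68, 12.10 and 9.31 in Gna12 cells, against 8.97, 6.86 and 7.93 in Gna11 cells, so replicate 3 of the Gna12 cells lay close to replicate 1 of the Gna11 cells. The 3 negative differences of the list were those of Elane (-0.58), Cxcr2 (-0.06) and Lcn2 (-0.03). Markers of T and NK cells (1 of 17 higher, Cd2 at 1.65, median -0.19), of fibroblasts (0 of 20 called, 4 at an unadjusted p under 0.05, median -0.19) and of endothelium (0 of 18 called, 0 unadjusted, median 0.06) had lower medians than the macrophage and neutrophil lists. The endothelial median was 0.50 without Gna12 replicate 2, -0.30 with the leukocyte mean in the model and 0.69 with the Gapdh difference. The chymase Mcpt4, a dim gene, was lower by -0.36, and with Cma1 it made 2 of 15 eosinophil and mast cell genes lower.

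**Figure D2:**
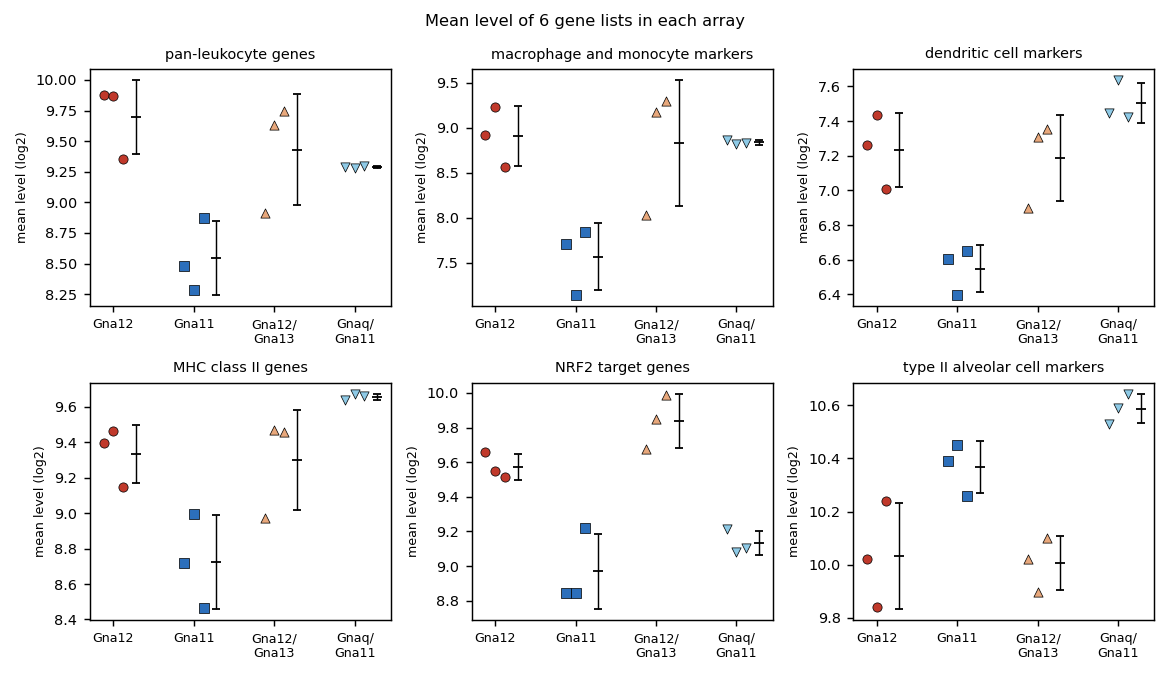
The vertical axes give the mean log2 level of 6 gene lists and the points the 3 arrays of each group, ordered Gna12, Gna11, Gna12/Gna13, Gnaq/Gna11, with the mean and SD as a bar to the right. Gna12 arrays lie above Gna11 arrays in 5 lists and below them in the type II cell list, while the double knockouts overlap in the pan-leukocyte and macrophage lists.

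The chemokines Ccl17 and Ccl22, which attract T cells, and the chemokine receptor Ccr7 were higher in Gna12 cells. Ccl17, a ligand of CCR4, gave 12.74, 12.72 and 12.67 in Gna12 cells, against 10.64, 10.91 and 11.25 in Gna11 cells. The Gna12 arrays were nearly equal and all above the Gna11 arrays (difference 1.77 ± 0.16, 3.42-fold, adjusted p = 0.000721). Ccl22, the other CCR4 ligand, gave 8.78, 9.35 and 8.57 in Gna12 cells, against 5.83, 6.35 and 6.28 in Gna11 cells (difference 2.75 ± 0.30, adjusted p = 0.00421). Ccr7, which guides mature dendritic cells to lymph nodes, gave 8.39, 8.84 and 8.64 in Gna12 cells, against 5.79, 6.46 and 6.87 in Gna11 cells (difference 2.25 ± 0.32, adjusted p = 0.00789). All 3 were called in each of the 6 fits without 1 array, with adjusted p up to 0.0488.

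Within the dendritic list 4 of 18 genes were higher, these 3 and Cd86, a costimulatory ligand (1.83). Fscn1, the actin bundler of mature dendritic cells, differed by 2.73 without being called. Siglech, a receptor of plasmacytoid dendritic cells, was lower by -1.58. The median of the list was 0.41, and it was 0.04 with the leukocyte mean in the model and 0.24 with the Gapdh difference. Flt3 (-0.16), Xcr1 (-0.22), Irf8 (-0.24) and Irf4 (-0.14) were not called. Of 38 cytokines and chemokines 4 were higher, Il10, Ccl22, Ccl17 and Cxcl2, a neutrophil chemokine (1.86 ± 0.26, adjusted p = 0.00666). Il33, the alarmin that type II cells make, was the 1 lower member. Tnf (0.40), Il6 (-0.20) and Ccl2 (-0.10) were not called.

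Among the genes of antigen presentation, of 11 MHC class II genes 4 were higher and none lower (36.4% called, against 2.82% of all genes). The list had 9 positive differences and a median of 0.47. H2-DMa, which loads peptides onto class II molecules, gave 10.43, 10.88 and 10.53 in Gna12 cells, against 8.88, 9.24 and 8.92 in Gna11 cells (difference 1.60 ± 0.23, adjusted p = 0.0086). H2-Aa, a class II alpha chain, gave 11.96, 12.14 and 11.86 in Gna12 cells, against 9.96, 11.54 and 10.06 in Gna11 cells, with replicate 2 of the Gna11 cells close to the Gna12 arrays (difference 1.47 ± 0.33, adjusted p = 0.0406). H2-Ab1, its beta chain partner, differed by 0.82 ± 0.10 (adjusted p = 0.00505) and Cd74, the invariant chain, by 0.42. Ciita, the activator that switches class II genes on, differed by -0.11 and was not called. H2-K1, a class I heavy chain, gave 11.39, 11.47 and 11.65 in Gna12 cells, against 9.59, 10.09 and 10.51 in Gna11 cells (difference 1.44 ± 0.19, adjusted p = 0.00505), and was the 1 called gene of 15 in the class I list. H2-Ab1 and H2-K1 were called in each of the 6 fits without 1 array, H2-DMa in 5 and H2-Aa in 1, and the class II list had 1 to 3 calls, 1 without Gna12 replicate 2. Its median was 0.18 with the leukocyte mean in the model and 0.34 with the Gapdh difference. The class I and class II genes have near relatives and strain-specific alleles, so their probe sets may read more than 1 gene or differ between alleles.

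The promoter of H2-Aa is shown because its class II control elements are compact and well known. Class II promoters carry an X2 box, bound by CREB-type factors, and a Y box, bound by NF-Y, that together recruit CIITA. The sequence is that of RefSeq for GRCm38.p6, chr17:34287774-34288073 on the minus strand, 300 bases around the listed start, written 5′ to 3′. Capitals mark the matches to TGACG on both strands, which overlap each other, and the match to CCAAT on the opposite strand.
H2-Aa: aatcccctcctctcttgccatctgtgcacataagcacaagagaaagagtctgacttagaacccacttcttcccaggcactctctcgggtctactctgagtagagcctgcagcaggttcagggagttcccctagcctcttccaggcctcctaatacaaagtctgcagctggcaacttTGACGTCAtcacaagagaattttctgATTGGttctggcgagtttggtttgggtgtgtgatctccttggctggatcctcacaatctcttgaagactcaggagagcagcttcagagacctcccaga
In the same window TGACG occurs in 21% and CCAAT in 37.9% of 27025 promoters on either strand, so a match alone is common. Promoters were listed for 2 of the 4 called class II genes, and the other, H2-DMa, held neither motif. CCAAT was in 5 and TGACG in 0 of the 5 promoters listed for class II genes that were not called.

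Interferon-stimulated genes were higher in 2 of 26, with none lower (7.69% called, against 2.82% of all genes) and a median of 0.37. That median turned to -0.16 with the leukocyte mean in the model and was 0.45 with the Gapdh difference. Between the double knockouts the list median was -0.08. Mx1, an antiviral GTPase, gave 7.16, 7.14 and 7.45 in Gna12 cells, against 6.13, 5.08 and 5.39 in Gna11 cells (difference 1.72 ± 0.25, adjusted p = 0.00789), and Rsad2, the antiviral enzyme viperin, differed by 1.04. Ifit1 (0.97), Oas1a (0.93) and Irf7 (0.03) were not called.

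Several genes controlled by NRF2, the transcription factor of the response to oxidants, were higher in Gna12 cells. Of 19 measured targets 6 were higher and none lower (31.6% called, against 2.82% of all genes). In this list 15 differences were positive and the median was 0.43. The mean level of the list was 9.66, 9.55 and 9.51 in Gna12 arrays, against 8.85, 8.84 and 9.22 in Gna11 arrays. Slc7a11, which imports cystine for glutathione, gave 8.92, 8.37 and 7.53 in Gna12 cells, against 4.15, 3.63 and 6.39 in Gna11 cells, with replicate 3 nearest to the other group on both sides (difference 3.55 ± 0.64, 11.7-fold, adjusted p = 0.0206). Akr1b8, an aldo-keto reductase, gave 8.74, 8.70 and 9.10 in Gna12 cells, against 7.07, 6.90 and 7.10 in Gna11 cells, 2 tight and separate groups (difference 1.82 ± 0.22, 3.54-fold, adjusted p = 0.00454). Taldo1, of the pentose phosphate pathway, differed by 0.94 ± 0.16, and Gclm, the modifier subunit of the enzyme that starts glutathione synthesis, by 0.84 ± 0.19 (adjusted p = 0.0469). Pgd and Fth1, ferritin heavy chain, both differed by 0.43, but a second Fth1 probe set of similar brightness differed by 0.05 (means 11.83 and 11.79). The classical target Nqo1 differed by -0.08, Gpx2 by -0.14 and Me1 by -1.15, and none of these was called. Akr1b8 was called in each of the 6 fits without 1 array, Taldo1 in 3, Slc7a11 in 2, and Gclm and Fth1 in 1. The list had 1 to 7 calls in these fits, 1 without Gna12 replicate 1 or 2, and a median of 0.34 to 0.47. With the leukocyte mean in the model the median was 0.14 and with the Gapdh difference 0.28.

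The promoters of Slc7a11 and Gclm are shown because these genes feed glutathione synthesis and were called in the same direction. In the first, capitals mark matches to TGATGCAA, a core of the element bound by ATF4, on both strands. This motif was searched after the values and the sequence had been seen. In the second they mark the 1 match, on the opposite strand, to TGACNNNGC, the core of the antioxidant response element that NRF2 binds. Both are RefSeq sequences of GRCm38.p6, 5′ to 3′, with Slc7a11 at chr3:50443564-50443863 on the minus strand and Gclm at chr3:122245307-122245606 on the plus strand.
Slc7a11: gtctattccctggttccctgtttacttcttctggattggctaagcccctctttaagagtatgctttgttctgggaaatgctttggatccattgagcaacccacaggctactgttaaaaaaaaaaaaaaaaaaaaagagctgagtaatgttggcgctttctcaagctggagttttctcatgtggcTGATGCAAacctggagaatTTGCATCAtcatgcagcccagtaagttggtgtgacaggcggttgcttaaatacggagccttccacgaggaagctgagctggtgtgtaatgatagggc
Gclm: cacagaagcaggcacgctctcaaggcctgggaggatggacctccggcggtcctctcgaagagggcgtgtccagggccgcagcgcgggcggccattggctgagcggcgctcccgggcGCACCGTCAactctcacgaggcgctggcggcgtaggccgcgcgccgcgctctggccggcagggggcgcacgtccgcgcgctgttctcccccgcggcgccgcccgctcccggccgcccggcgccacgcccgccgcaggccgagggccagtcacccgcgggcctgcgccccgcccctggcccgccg
TGATGCAA occurs in 0.929% of 27025 promoters and TGACNNNGC in 12.5%. Among NRF2 targets with a listed promoter TGACNNNGC was in 1 of 6 called and 3 of 10 other genes, and TGATGCAA in 1 of 6 and 0 of 10. In the unfolded protein response list TGATGCAA was in 0 of 1 called gene and in 2 of 20 others, Herpud1 and Chac1. No match says only that these letters are not in the 300 bases searched.

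Glutathione S-transferases, which attach glutathione to reactive compounds, did not share a direction. Of 21 genes 3 were lower and 1 higher (19.05% called, against 2.82% of all genes), with a median of -0.01. Gstm3 (-1.30), Gstt2 (-0.69) and Gstk1 (-0.46) were lower and Gstm4 (0.89) was higher. Gstk1 gave 11.98, 11.89 and 11.76 in Gna12 cells, against 12.39, 12.30 and 12.32 in Gna11 cells, a small difference with little scatter (adjusted p = 0.00553). Members of the mu class are near copies of one another, so their probe sets may share signal. Of 28 carboxylesterases, flavin monooxygenases, cytochromes P450 and paraoxonases none was called, 5 had an unadjusted p under 0.05, and the median was -0.01. Of 20 aldehyde dehydrogenases 1 was lower, Aldh1a7 (-0.24).

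Markers of type II alveolar cells were at high levels in both groups, and most had negative differences. Sftpc, the surfactant protein that defines these cells, averaged 13.07 in Gna12 cells and 13.37 in Gna11 cells, and Sftpb 12.03 and 12.01. Of 23 markers 2 were lower and none higher (8.7% called, against 2.82% of all genes), 18 differences were negative, and the median was -0.21. The mean level of the list was 10.02, 9.84 and 10.24 in Gna12 arrays, against 10.39, 10.45 and 10.26 in Gna11 arrays, so replicate 3 of the Gna12 cells lay just below replicate 3 of the Gna11 cells. With 1 array left out the median ran from -0.30 to -0.13 and the list had 0 to 3 calls, 0 of them without Gna12 replicate 1 or 2 or Gna11 replicate 1 or 2, and with the leukocyte mean or the Gapdh difference in the model the median was -0.04 in both fits. Slc34a2, the phosphate transporter of type II cells, gave 8.54, 8.28 and 8.73 in Gna12 cells, against 9.30, 9.63 and 9.18 in Gna11 cells (difference -0.85 ± 0.20, adjusted p = 0.048). Il33 gave 7.78, 7.02 and 9.04 in Gna12 cells, against 10.35, 9.69 and 9.66 in Gna11 cells (difference -1.95 ± 0.46, adjusted p = 0.0488). Both were called in 1 of the 6 fits without 1 array. Etv5, a transcription factor that type II cells need (-1.59), and Abca3, the lipid pump of lamellar bodies (-0.62), were not called. The pan-leukocyte genes had positive differences in the same arrays, and their part in these differences was not tested.

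Type I alveolar cell markers gave 0 calls in 20 genes (1 at an unadjusted p under 0.05), with a median of -0.07. That median had no stable sign, since it ran from -0.40 to 0.10 with 1 array left out and was 0.20 with the leukocyte mean and 0.89 with the Gapdh difference in the model. Ager, the receptor that marks type I cells, differed by -0.08 and Pdpn by 0.00. Keratins and genes of transitional alveolar cells were higher in 2 of 21, Fn1, fibronectin (2.10), and Cdkn1a, the cell cycle inhibitor p21 (1.16), with a median of 0.07. None of 23 airway markers (2 unadjusted) and none of 23 claudin and junction genes (6 unadjusted) was called, although Cldn2, a pore-forming claudin, came close (2.08, adjusted p = 0.0504). Cholesterol and fatty acid synthesis had a negative median of -0.31, with 22 of 28 differences negative, 9 at an unadjusted p under 0.05 and 0 called. The median was -0.06 with the leukocyte mean in the model and turned to 0.05 with the Gapdh difference. Fads2, a fatty acid desaturase, was nearest to the threshold (-0.75, adjusted p = 0.0677).

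Around the deleted signalling steps 5 genes were called in 3 lists. The calls made 6.67% of the alpha subunits, 10% of the Gq/11 effectors and 9.09% of the G12/13 effectors, against 2.82% of all genes. These lists too were chosen with earlier results of these data known. Among 15 G protein alpha subunits Gnai2, of the inhibitory class, was higher. It gave 11.09, 11.02 and 10.85 in Gna12 cells, against 10.00, 9.87 and 10.23 in Gna11 cells (difference 0.95 ± 0.13, adjusted p = 0.00617), and it was called in each of the 6 fits without 1 array. Of 20 effectors downstream of Gq/11 Dgkz, a diacylglycerol kinase, was higher (1.07) and Prkd3, protein kinase D3, lower (-0.57). Prkd3 was not called in any of the fits without 1 array (adjusted p 0.0799 to 0.158). Of 22 genes downstream of G12/13 Arhgef11, a RhoA exchange factor that binds G12/13, was higher by 1.87 ± 0.42 and Cfl1, cofilin, by 0.48. Arhgef11 gave 7.33, 7.29 and 5.87 in Gna12 cells, against 4.91, 5.03 and 4.94 in Gna11 cells (adjusted p = 0.0416), and its dim second probe set gave -0.17. With 1 array left out Arhgef11 and Cfl1 were called in 1 of the 6 fits and Dgkz in 2, with adjusted p up to 0.157 for Arhgef11.

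Receptors that couple to these proteins were called in 1 of 29, Ptgfr. It gave 4.20, 4.18 and 4.32 in Gna12 cells, against 7.09, 6.71 and 5.34 in Gna11 cells (difference -2.15 ± 0.34, adjusted p = 0.0125), and its 4 other, dimmer probe sets differed by -0.25 to 0.07. Rgs1, which speeds the shut-off of G proteins in lymphoid and myeloid cells, was the 1 called regulator of 19 (1.12). Targets of SRF, which reads out actin assembly, were called in 1 of 23, Acta1 (1.15), with a median of 0.22 and 18 positive differences. Those of YAP and TAZ were called in 0 of 20 (3 unadjusted, median -0.09), with Axl at 1.08 and Ccn1 at -0.34. Calcium and NFAT genes were called in 0 of 17 (7 unadjusted, median 0.24), with Atp2b1, a calcium pump, at 0.56 (adjusted p = 0.0514). Of 26 immediate early genes Nr4a3, an orphan nuclear receptor, was higher (0.96).

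Cathepsins and alternatively activated macrophage genes had high shares of calls, 28.6% and 27.8% against 2.82% of all genes. The lists were chosen with earlier results of these data known, so these shares are a description and no test. The alternatively activated list shares Ccl17 and Ccl22 with the dendritic and cytokine lists. Cathepsins and their inhibitors were higher in 6 of 21 and lower in none (median 0.24), led by Ctsk, cathepsin K (2.55), and Cstb, cystatin B (1.42). Ctsk gave 7.31, 8.09 and 8.41 in Gna12 cells, against 5.29, 4.70 and 6.16 in Gna11 cells. Cstb gave 9.03, 9.82 and 9.90 in Gna12 cells, against 8.22, 8.14 and 8.13 in Gna11 cells (adjusted p = 0.012). Without Gna12 replicate 2 none of the 6 was called, and Ctsk, Ctss, Ctsa and Ctsd each passed in 1 of the 6 fits without 1 array. The median of the list was 0.09 with the leukocyte mean in the model. Metalloproteinases were higher in 2 of 24, Mmp8 and Adam8 (1.29). Matrix genes were called in 1 of 31, Fn1, and 23 of the 31 differences were negative. Iron genes were higher in 2 of 20, Hamp and Fth1, and Pfkp, of glycolysis (0.73), Kif23, of cytokinesis (1.15), Sdf2l1, of the endoplasmic reticulum (2.08), and Ezr, ezrin (0.71), were the 1 called gene of their lists. Sdf2l1 was not called in any of the fits without 1 array (adjusted p 0.0554 to 0.119). In the integrin list Itgb2 was higher and Itga9 lower (24 genes, median 0.24). Alternatively activated macrophage genes were higher in 4 of 18, Ccl22, Fn1, Ccl17 and Clec7a, a receptor for fungal glucans (1.67), and lower in 1, Cd209d (-1.59), while Chil3 (0.10), Retnla (-0.06) and Arg1 (-0.29), genes that interleukin 4 induces, were not called.

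None was called in the lists of complement (18 genes, 9 unadjusted, median 0.66), TGF-beta (24, 5 unadjusted, 0.15), prostaglandin and leukotriene (21, 9 unadjusted, 0.20), FGF receptor 2 and EGF receptor (24, 6 unadjusted, -0.05) and DNA replication genes (23, 3 unadjusted, -0.06). Within them Tgfbi (1.27, adjusted p = 0.0516) and Ptgds, a prostaglandin D synthase (-2.21, adjusted p = 0.0605), came nearest to the threshold.

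Genes beside the deleted loci were examined because flanking chromosome is inherited with a targeted allele. Of the 25 measured genes on each side of Gna12, on chromosome 5, 4 were called, all higher in Gna12 cells, which is 8% against 2.82% of all genes. C130050O18Rik gave 11.20, 11.35 and 10.83 in Gna12 cells, against 5.49, 8.12 and 9.64 in Gna11 cells (difference 3.38). Daglb, a diacylglycerol lipase (2.40), Lfng, a modifier of Notch (1.20), and Ttyh3, a membrane channel protein (0.65), were the others. With 1 array left out Daglb was called in 3 of the 6 fits, C130050O18Rik and Lfng in 2 and Ttyh3 in none (adjusted p 0.072 to 0.157). Of the 50 genes around Gna11, on chromosome 10, 2 were called (4%), Tle6, a transcriptional co-repressor (-1.19), and Chst11, a chondroitin sulfotransferase (1.51). Around Gna13 and Gnaq, intact in both groups, 4% and 2% of 50 genes were called. The strain background of either line is unknown here.

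The double knockouts contrast the same 2 G protein classes in other arrays, with 1109 genes called between Gna12/Gna13 and Gnaq/Gna11 cells (6.1%, of which 3.39% of all genes were higher and 2.7% lower). The pairs share no array, although they share the model's estimate of spread. They also share the position numbers, 4 for both groups lacking Gna12 and 2 for both lacking Gna11, so position and G protein class cannot be told apart in either pair. Eif2s3y differed as well, being high in 2 of the 3 Gna12/Gna13 arrays and in none of the Gnaq/Gna11 arrays. In total 150 genes were called in both, 29.2% of the calls between single knockouts and 13.5% of those between double knockouts, and all 150 had the same direction. Of the genes lower in Gna12 cells 43.7% were called in both, and of those higher 20.3%. The direction alone was shared by 91.4% of the lower calls, where 56.5% of all genes were negative between double knockouts, and by 84.2% of the higher calls, where 43.5% were positive. The higher calls had a median of 0.401 between double knockouts against 1.26 between single ones, and the lower calls one of -0.516 against -0.894. These genes were chosen by their differences between single knockouts, and that choice alone favours larger values there. The medians therefore do not show weaker differences between the double knockouts. Whether higher and lower calls differ in these shares and medians was not tested.

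Hal and Itga9 differed as strongly between the double knockouts, by -5.60 and -4.98 (adjusted p = 1.86e-05 and 0.000144). Klk1 (-1.62), Hsd3b2 (-2.72), Adat2 (-2.08), Il33 (-2.84) and Slc34a2 (-1.60) were also called there, as were Apoc2 (2.77), Il10 (2.00), S100a9 (3.55), Akr1b8 (1.00) and Gclm (1.46). NRF2 targets had 8 of 19 called higher and a median of 0.63 between double knockouts. Type II markers had 9 of 23 called lower. Between double knockouts pan-leukocyte genes had 0 of 20 called and a median of 0.06, macrophage genes 1 of 21 and 0.01, and MHC class II genes 0 higher, 2 lower and -0.30. No member of the pan-leukocyte, macrophage or MHC class II lists was called in the difference of differences. Ighm differed by -0.04 between double knockouts, but its difference of differences was not called (-5.08, adjusted p = 0.157).

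The difference between both contrasts, double knockouts minus single knockouts, was called for 13 genes (0.0715%), of which 4 were also called between single knockouts. These were Ccl17 (-2.30, adjusted p = 0.00886), Ccl22 (-3.08, 0.0398), Ccr7 (-3.17, 0.0413) and AA467197, which was outside the rule for naming and was added after its values were seen. Between double knockouts Ccl17 differed by -0.52, Ccl22 by -0.33 and Ccr7 by -0.91, each not called. The 13 calls became 0 without replicate 2 of the Gna12 cells (1755 genes at an unadjusted p under 0.05), and 40 without replicate 1 of the Gnaq/Gna11 cells.

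**Figure D3:**
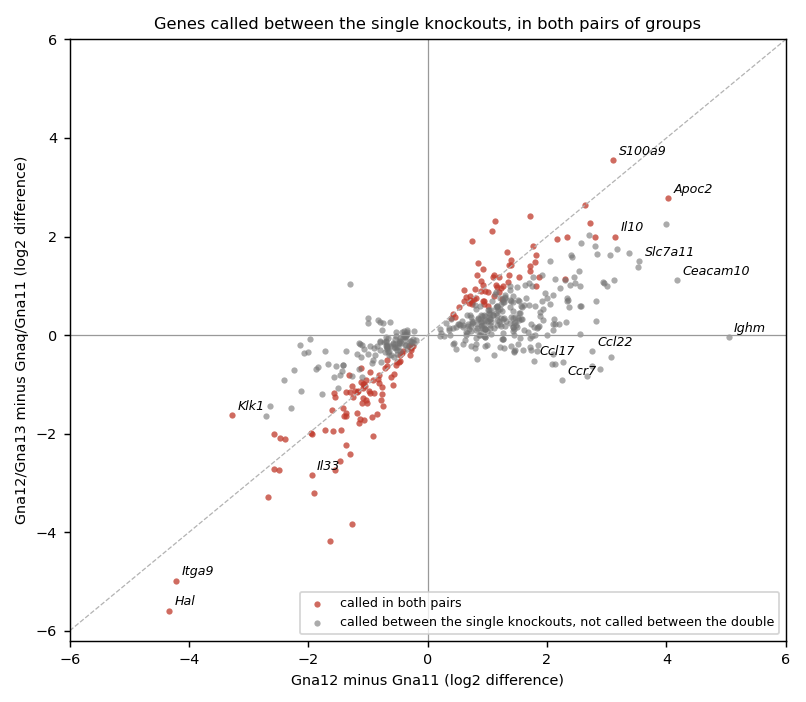
Each point is 1 of the 513 genes called between the single knockouts, with the log2 difference Gna12 minus Gna11 on the horizontal axis and Gna12/Gna13 minus Gnaq/Gna11 on the vertical axis. Red points were called in both pairs (150 genes), grey points between the single knockouts and not between the double. The dashed line marks equal differences, and most genes higher in Gna12 cells lie below it. The genes were chosen by the comparison on the horizontal axis, which alone favours larger values there.

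**Figure D4:**
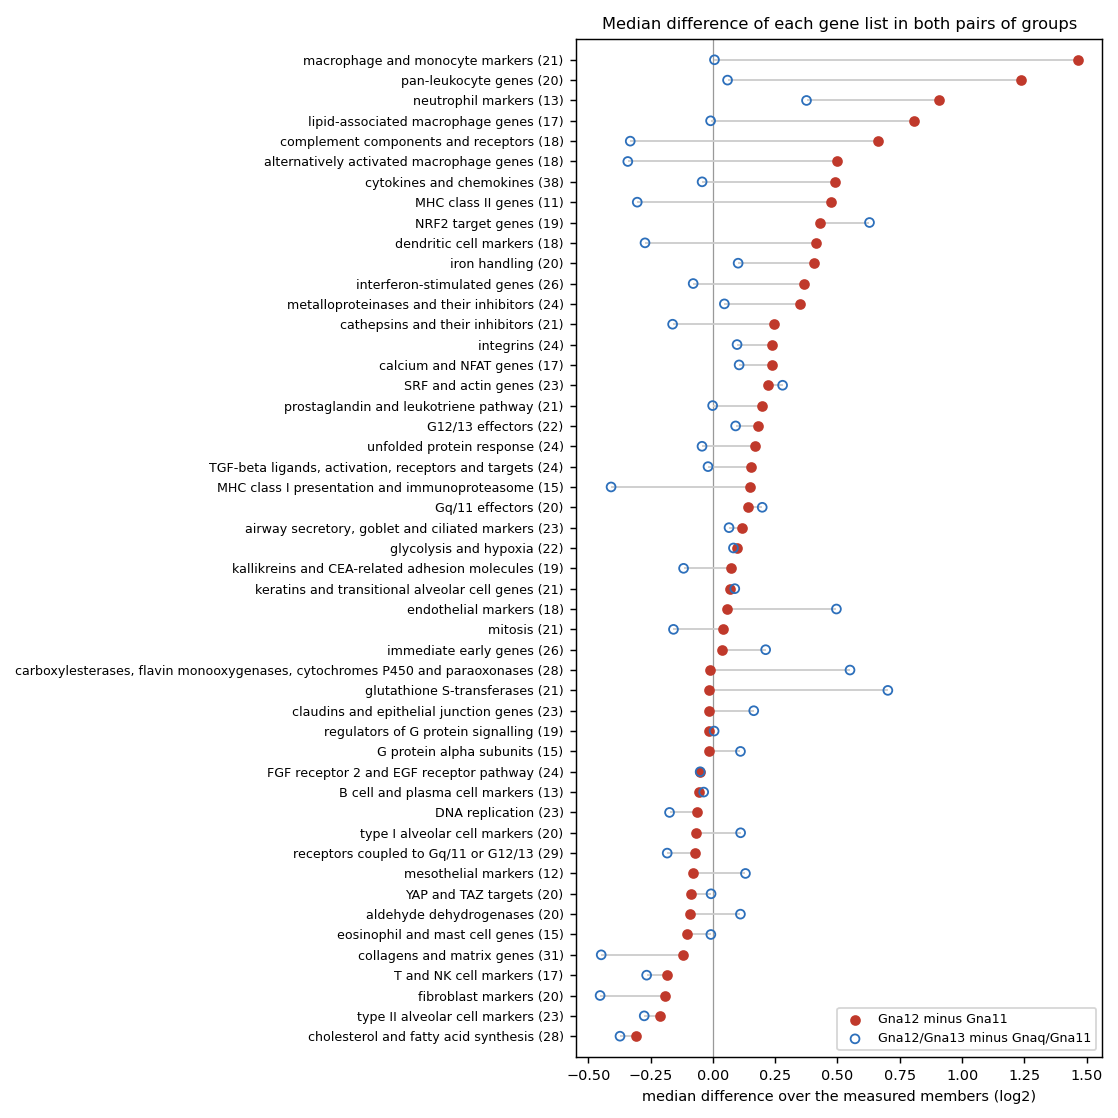
Each row is a gene list with the number of its measured members, and the horizontal axis gives the median log2 difference of the members. Filled red points are Gna12 minus Gna11 and open blue circles Gna12/Gna13 minus Gnaq/Gna11. The macrophage and pan-leukocyte lists reach 1.47 and 1.24 between single knockouts and lie near 0 between double knockouts.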

How the data were processed

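The deposited table holds 1 log2 value per probe set and array for 12 Affymetrix arrays, made by the authors with RMA (per the submitters' processing notes, without a version). RMA corrects background, normalizes between arrays and summarises probes. The log base is not stated and was read as 2 because RMA gives log2 values. Total RNA (10 ng) was amplified and labelled with biotin, per the labels. Of 45101 probe sets 64 were controls, 34945 had 1 gene, 932 several and 9160 none in the platform annotation. Symbols were updated through the gene number for 34741 of the 34945 probe sets with the RefSeq table of GRCm38.p6. Of the 18193 genes 9010 had more than 1 probe set, and the one with the highest mean was used.

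A limma 3.58.1 model (R 4.3.3) with 1 mean per group was fitted to all 12 arrays with eBayes following intensity (residual degrees of freedom 8, prior 3.19). Tests were two-sided, with Benjamini-Hochberg adjustment over all genes. The procedure was run on simulated data in which genes varied independently. That run cannot tell how it behaves with shifts that many genes share. The number of arrays limits the precision. Nothing in the labels ties the 3 samples of a genotype to different animals or cultures, so p-values measure spread that may be technical. The Y-linked signal of Eif2s3y set replicate 2 apart from replicates 1 and 3 in Gna12 cells (3.30 against 6.91 and 7.37). The same held in Gna11 cells (3.56 against 7.11 and 7.00) and in Gna12/Gna13 cells (3.07 against 7.37 and 7.35). No such split was seen in Gnaq/Gna11 cells (3.325 to 3.538). Whether replicates share an animal or a culture was not tested. No pair of arrays was identical.

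In all, 50 gene lists held 1123 entries, of which 1029 were measured, 2 through an older symbol. The members and lists were chosen with earlier results of these data known. Named are the 4 targeted genes, the 15 largest differences in each direction among called genes without overlap of the arrays (higher group mean not under 5.078, the median of non-control values, clone, predicted and RIKEN symbols left out), up to 4 called members per list (up to 2 by smallest p where none was called), and called genes among 25 on each side of Gna12 and Gna11. Other list members are given as values to describe their list. Alternatives changed the trend, the arrays, weights, probe set rule, level filter, normalization, replicate block and covariates.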

Additional observations from a re-analysis of the deposited data

Results flagged for a closer look

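For 4 named genes the difference between the genotype classes was not the same in the single and the double knockouts, by the limma test of the difference itself. The double pair minus the single pair came to -3.08 for Ccl22, -3.17 for Ccr7 and -2.30 for Ccl17, which were higher in Gna12 than in Gna11 cells and not called between the double knockouts. For Ces1g, a carboxylesterase, it came to 5.68. Ces1g gave 8.14, 7.07 and 7.71 in Gna12 cells, against 9.89, 8.05 and 9.43 in Gna11 cells, which overlapped and were not called (difference -1.48, adjusted p = 0.187), and it was higher by 4.19 in Gna12/Gna13 than in Gnaq/Gna11 cells (adjusted p = 0.00333). Pan-leukocyte genes had a median of 1.24 in the single pair and 0.06 in the double pair, and their part in the first 3 differences was not tested.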

How the results depend on the processing

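The 513 calls became 22 with the 6 arrays alone, 114 with the replicate block, 0 with either covariate and 62 to 736 with 1 array left out; 100 of the 114 were among the 513. All 513 kept their sign in these settings except 6 with the leukocyte mean. The cause was not tested. No other setting moved the count by over 1.5 times. Whether the replicate numbers pair the single knockouts is not known. Deviations from the group means correlated at 0.0182, 0.198 and 0.142 between same-numbered Gna12 and Gna11 arrays. Between differently numbered arrays the correlations ran from -0.203 to 0.103. Replicate 1 of the Gna12 cells had 0.0253 with replicate 2 of the Gna11 cells.

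The 1109 calls between double knockouts ranged from 369 to 1259 with 1 array left out; leaving out double knockout arrays was added after the data had been seen. The 13 calls of the difference of differences became 22 without the trend, 28 with array weights, 35 with the mean of probe sets, 37 when dim genes were left out, 0 with the replicate block (2098 unadjusted), 1 with the leukocyte mean, 0 with the Gapdh difference (1483 unadjusted) and 0 to 40 with 1 array left out.

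The sign turned, with the mean of probe sets, for Gna12 (-0.116) and Gna11 (0.125). With the leukocyte mean it turned for Axl (-0.682), Ccn1 (0.173), Cd14 (-0.167), Cd68 (-0.0412), Cd86 (-0.00885), Vwf (-0.807), Plvap (-0.318), Ctsa (-0.0116), Tgfbi (-0.131), Mcm3 (-0.327) and Gna13 (-0.0818), and with the Gapdh difference for Axl (-0.0948) and Gna13 (-0.16). With 1 array left out, Gna13 ranged from -0.0448 to 0.112, below 0 without Gna12 replicate 2 and without Gna11 replicate 1 (-0.0116) or 2 (-0.0037). Uty ranged from -0.263 to 0.0369, above 0 without Gna11 replicate 3, and Xist from -0.570 to 0.0712, above 0 without Gna11 replicate 2. None of these fits called the gene.

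Differences as small as that of Aldh1a7 (-0.24) were called where arrays scattered little, and signal over background was not measured.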
